A study of Mus musculus with 18 samples.

Results

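The lung cancer line LLC1 was grown as hanging-drop spheroids with wound healing fibroblasts, and the question was what deleting Prrx1 in those fibroblasts did to the RNA of the cancer cells. Prrx1 encodes a homeobox transcription factor of mesenchymal cells. The comparison rests on 6 of the 18 samples of the series, chosen by their labels: 3 cocultures with WT fibroblasts, which carried a control guide (sgNS), and 3 with sgPrrx1 fibroblasts, in which Prrx1 had been deleted by CRISPR/Cas9. Fibroblasts came from mouse dorsal skin on day 10 after wounding and were mixed with GFP-tagged LLC1 cells at 3 fibroblasts per cancer cell. After a week as spheroids the GFP-tagged cancer cells were sorted, per the study's methods, while its account of the results calls the fibroblasts GFP-expressing. The LLC1 cells themselves had no deletion in either group. LLC1 cells kept without fibroblasts (3 samples) are given as a background level. Whether the samples came from separate cultures, animals or edited clones is not given in the sources used here, so p-values measure only the spread between these samples.

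Activated fibroblasts lay down the matrix of a healing wound: type I collagen, a trimer of Col1a1 and Col1a2 chains, gives tensile strength, small proteoglycans and fibulins organize it, and matricellular proteins such as thrombospondins carry signals to cells. Cancer cells in contact with such fibroblasts can change their own matrix, protease and cytokine genes. LLC1 is itself a mesenchymal-looking line.

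Levels are CPM, edgeR's depth-scaled read counts with TMM factors, and fold changes are on the log2 scale from edgeR's quasi-likelihood fit with its standard error (SE). A gene was called at a Benjamini-Hochberg adjusted p under 0.05. Total counts ran from 66129117 to 103997557 in the 6 coculture samples. sgPrrx1 replicate 3 stood apart, and the choice to leave it out of some fits was made with earlier results of these data known. Its log2 CPM correlated at 0.949 to 0.950 with the other sgPrrx1 samples. Those correlated at 0.991 with each other, and the WT samples at 0.989 to 0.990. The difference of replicate 3 followed transcript length. Relative to the other sgPrrx1 samples, the median log2 ratio was 0.74 in the class of genes with the shortest transcripts (up to 1761 nt) and -0.90 in the class with the longest (from 4881 nt), as the plot by transcript length shows. The biological coefficient of variation was 0.228 with this sample and 0.112 without it. The count of calls over all genes is therefore given with and without it, and results without it are named as such.

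**Figure D1:**
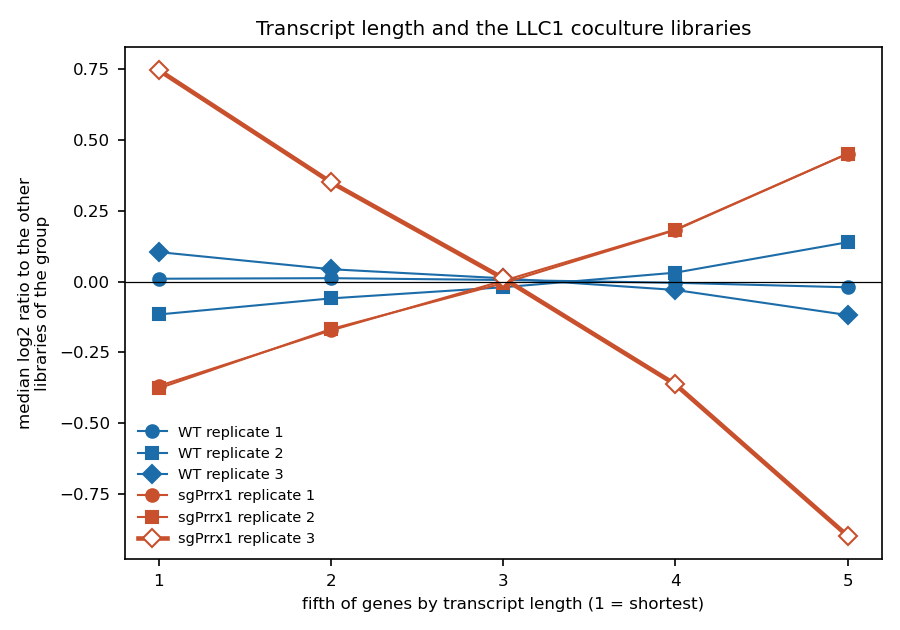
Median log2 ratio of each coculture library to the mean of the other libraries of its group (vertical axis), by 5 classes of genes ordered by transcript length (horizontal axis, 1 = shortest). The line of sgPrrx1 replicate 3 (open diamonds) falls from 0.74 to -0.90, while the lines of the WT libraries stay between -0.12 and 0.14; sgPrrx1 replicates 1 and 2 mirror replicate 3 because it is part of their reference.

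Prrx1 was measured in LLC1 cells of every group, which were not edited. Prrx1 was at 217, 226 and 213 CPM in the WT cocultures, at 204, 215 and 114 CPM in the sgPrrx1 cocultures and at 179 to 227 CPM in LLC1 cells alone. In sgPrrx1 replicate 2 it was within the WT range, in replicate 1 it was a little below it and in replicate 3 far below. The log2 fold change was -0.30 with all libraries (adjusted p = 0.607) and -0.06 without replicate 3 (adjusted p = 0.665), and with an offset for transcript length and GC (the length offset) it was -0.17 without replicate 3, which passed (adjusted p = 0.035), and -0.03 with all libraries (adjusted p = 0.895). Values with the length offset further on are without replicate 3. The level of Prrx1 in the cancer cells does not check the labels of the fibroblasts.

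With all 6 cocultures, 7 of 12873 genes passed the threshold, which is 0.0544% of the genes tested, and all 7 were lower with sgPrrx1 fibroblasts (also 0.0544%). None was higher, a share of 0%, although 1545 genes had an unadjusted p under 0.05 in either direction and other tools made more calls: DESeq2 called 501, of which 255 were higher, and limma-voom with sample weights called 4681, of which 2340 were higher. The 7 genes were Col1a1, Col1a2, Bgn, Fbln2, Bmp2, Pdpn and Tns1. In each of them the 3 sgPrrx1 libraries, replicate 3 included, lay below all 3 WT libraries.

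Both chains of type I collagen fell. Col1a2 (chr6:4505618-4541543, build GRCm38.p6, as are all positions here) was at 9.27, 8.55 and 8.22 CPM in the WT cocultures and at 0.311, 0.223 and 0.257 CPM in the sgPrrx1 cocultures. The groups were far apart, and LLC1 cells alone held 0 to 0.0642 CPM. The fall was 32.5-fold (log2 fold change -5.02 ± 0.37 SE, adjusted p = 0.00361), and it was -5.00 without replicate 3 (adjusted p = 0.000244). Col1a1 (chr11:94936224-94953042) was at 8.01, 10.6 and 7.20 CPM with WT and at 0.528, 0.693 and 0.822 CPM with sgPrrx1 fibroblasts, against 0.244 to 0.524 CPM in cells alone. Its log2 fold change was -3.67 ± 0.30 (adjusted p = 0.0054), and -3.83 without replicate 3 (adjusted p = 0.00119).

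A pair of proteins that bind collagen and elastic fibres fell with them. Bgn (biglycan, chrX:73483601-73495936), a small leucine-rich proteoglycan, was at 11.6, 13.3 and 12.3 CPM with WT and at 2.04, 2.24 and 2.89 CPM with sgPrrx1 fibroblasts. The sgPrrx1 values were close to those of cells alone, 1.95 to 2.16 CPM, and the log2 fold change was -2.38 ± 0.15 (adjusted p = 0.0022). Fbln2 (fibulin 2, chr6:91212460-91272540) was at 6.92, 5.22 and 6.11 CPM with WT and at 0.669, 0.646 and 0.651 CPM with sgPrrx1 fibroblasts (log2 fold change -3.21 ± 0.37, adjusted p = 0.0398). Cells alone had at most 0.0737 CPM of Fbln2, so a part of the WT level was still seen with sgPrrx1 fibroblasts.

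The other genes of the 7 have signalling, membrane and adhesion roles. Bmp2 (chr2:133552159-133562896), a secreted ligand of the TGF-beta superfamily, had no count in LLC1 cells alone, 2.69, 2.6 and 3.2 CPM with WT fibroblasts and 0.104, 0.164 and 0.0342 CPM with sgPrrx1 fibroblasts (log2 fold change -4.73 ± 0.44, adjusted p = 0.0465). Pdpn (podoplanin, chr4:143267409-143299564), a membrane glycoprotein, was at 5.96, 4.41 and 5.69 CPM with WT and at 0.905, 1.55 and 0.925 CPM with sgPrrx1 fibroblasts (log2 fold change -2.24 ± 0.25, adjusted p = 0.0376). Tns1 (tensin 1, chr1:73910232-74124548), which links integrins to actin, was at 0.906, 1.22 and 1.16 CPM with WT and at 0.066, 0.153 and 0.0856 CPM with sgPrrx1 fibroblasts (log2 fold change -3.41 ± 0.37, adjusted p = 0.0376). These levels are low, and Bmp2, Fbln2, Pdpn and Tns1 no longer passed when any 1 WT library was left out (adjusted p of 0.114 to 0.324), whereas Col1a1, Col1a2 and Bgn passed without any 1 of the 6 libraries. The count was 3 without any 1 WT library or without sgPrrx1 replicate 1.

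**Figure D2:**
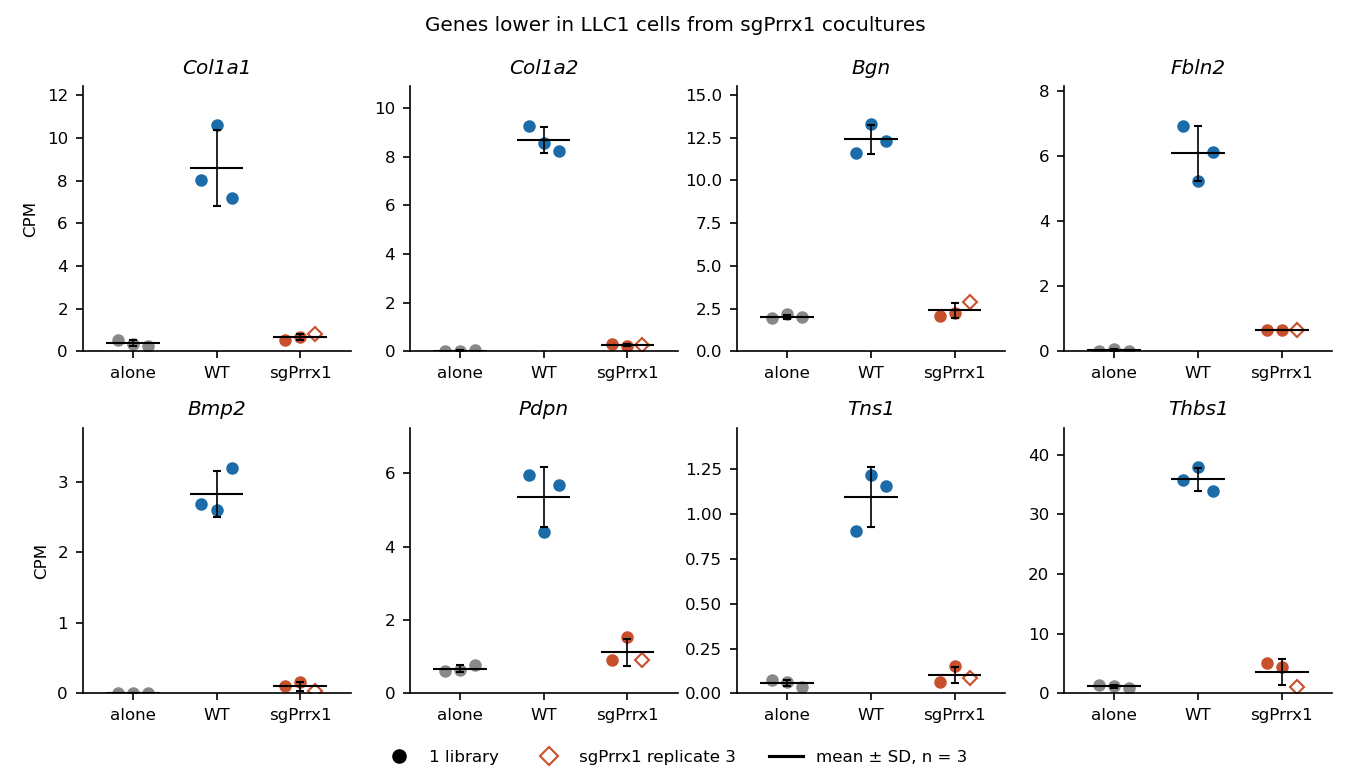
CPM of the 7 genes called with all libraries and of Thbs1 (vertical axes, linear from 0) in LLC1 cells alone, with WT and with sgPrrx1 fibroblasts; each point is a library, bars show mean ± SD (n = 3), and the open diamond is sgPrrx1 replicate 3. In every panel the 3 sgPrrx1 points lie below the 3 WT points, for example 0.223 to 0.311 against 8.22 to 9.27 CPM for Col1a2.

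The sequence before the start of these genes is shown for 2 of them that fell, Col1a2 and Bgn, and for Col3a1, a collagen gene that did not fall. RefSeq promoter windows on GRCm38.p6 were matched by symbol for 5 of the 7 genes (Bgn, Col1a2, Fbln2, Pdpn and Tns1; not Bmp2 and Col1a1). The 250 bases upstream of each annotated start are printed on the gene's strand, and capitals mark a match on either strand to letters associated with 5 factor families: TAATTA for homeodomain factors, CCAAT for NF-Y, TATAAA for the TATA-binding protein, TGANTCA for AP-1 and CAGAC for Smad proteins.
Col1a2, chr6:4505368-4505617, plus strand: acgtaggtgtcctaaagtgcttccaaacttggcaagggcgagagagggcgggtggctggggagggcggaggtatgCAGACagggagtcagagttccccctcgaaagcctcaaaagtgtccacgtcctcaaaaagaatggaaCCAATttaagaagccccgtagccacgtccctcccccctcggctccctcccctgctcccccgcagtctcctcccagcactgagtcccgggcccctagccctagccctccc
Bgn, chrX:73483351-73483600, plus strand: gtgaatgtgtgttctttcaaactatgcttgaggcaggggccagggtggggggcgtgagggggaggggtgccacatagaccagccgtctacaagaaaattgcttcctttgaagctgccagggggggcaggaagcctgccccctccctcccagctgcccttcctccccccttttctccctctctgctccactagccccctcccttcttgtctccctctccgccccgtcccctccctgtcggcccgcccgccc
Col3a1, chr1:45311288-45311537, plus strand: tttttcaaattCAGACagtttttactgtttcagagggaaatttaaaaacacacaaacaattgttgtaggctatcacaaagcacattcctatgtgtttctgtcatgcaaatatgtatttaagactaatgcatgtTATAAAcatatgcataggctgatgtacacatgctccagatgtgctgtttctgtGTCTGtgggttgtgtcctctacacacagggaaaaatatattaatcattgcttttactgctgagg
CCAAT was found in 1 of the 5 promoters, that of Col1a2, against 33.8% of 32851 mouse promoter windows of the same length. CAGAC was found only in Col1a2 as well, against 42.2% of all windows. The other motifs were found in none of the 5 (all windows: TAATTA 4.84%, while TATAAA was in 12.4% and the AP-1 letters in 6.75%). Col3a1 held TATAAA once and the Smad letters on both strands. These matches only describe the letters in the window. The window searched for Fbln2 (chr6:91212514-91212763) lies inside the gene span given above and not before it.

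Without sgPrrx1 replicate 3, 745 of 13088 genes passed the threshold (5.69%), 385 higher (2.94%) and 360 lower (2.75%). With 2 sgPrrx1 libraries left, this count rested on both: it was 12 without replicate 1 and 14 without replicate 2, and 53, 1134 and 76 without WT replicates 1, 2 and 3, where a lone sgPrrx1 sample is assumed to vary like the other groups. The called genes fell into unlike classes by size. Of the 360 lower genes, 106 (0.81% of the genes tested) fell by at least 1 on the log2 scale, with a median of -4.78 and a median level of only 0.654 CPM in the WT cocultures. The other 254 lower genes had a median change of -0.33 at a median WT level of 50.9 CPM. In LLC1 cells alone, 99 of the 106 large falls had a mean below 1 CPM, against 1 of the 254. The WT mean was more than 2-fold the mean of cells alone for 98 of the 106 and 7 of the 254. Among the higher genes, 8 (0.0611%) rose by at least 1, and 377 rose by less, with a median change of 0.31 at a median WT level of 60.0 CPM.

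The size classes also behaved differently in the sample that was left out. sgPrrx1 replicate 3 lay below all WT libraries for 103 of the 106 large falls, and above all WT libraries for 244 of the 377 small rises and below them for 139 of the 254 small falls. With the length offset, 105 of the 106 large falls were still called, and 167 of the 377 small rises and 117 of the 254 small falls. Of the large falls, 20 were called without WT replicate 1, 84 without WT replicate 2, 19 without WT replicate 3, 6 without sgPrrx1 replicate 1 and 9 without sgPrrx1 replicate 2, 15 when at least 10 counts were required in every library and 65 with no filter. Called genes that rose had a median transcript of 4241 nt, those that fell 2314 nt and all genes tested 2982 nt. In this fit the median log2 fold change of all genes ran from -0.18 in the class with the shortest transcripts to 0.17 in the class with the longest. What part length has in these changes was not tested.

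**Figure D3:**
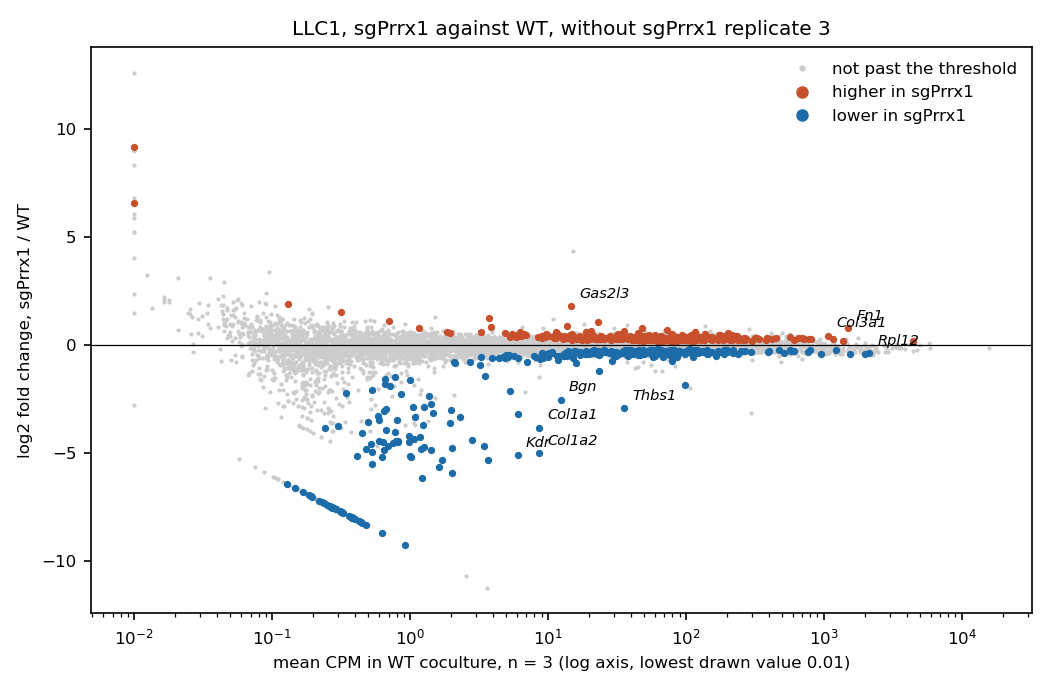
Log2 fold change between sgPrrx1 and WT cocultures without sgPrrx1 replicate 3 (vertical axis) against mean CPM in the WT cocultures (horizontal log axis), 1 point per gene tested. The 360 genes called lower (blue) hold 106 with falls of at least 1, mostly near or below 1 CPM, and the 385 called higher (red) mostly rose by less than 1; points on the falling line at the lower left are genes with no count in the sgPrrx1 libraries used, whose position depends on the prior count of the fit.

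The large falls beyond the 7 genes included Thbs1, Kdr and Cdh11. Thbs1 (thrombospondin 1, a matricellular protein that activates latent TGF-beta) was at 35.8, 37.9 and 33.9 CPM with WT and at 5.13, 4.38 and 1.06 CPM with sgPrrx1 fibroblasts. All sgPrrx1 values were far below the WT values, with replicate 3 at the level of cells alone (0.911 to 1.42 CPM). Its log2 fold change was -2.92 ± 0.14 without replicate 3 (adjusted p = 5.53e-05), whereas with all libraries it was -3.33 and did not pass (adjusted p = 0.101). Kdr (VEGF receptor 2) was at 6.16, 6.46 and 5.49 CPM with WT and at 0.226, 0.117 and 0 CPM with sgPrrx1 fibroblasts (log2 fold change without replicate 3 of -5.09 ± 0.36, adjusted p = 0.000901). Cdh11 (cadherin 11, a mesenchymal adhesion protein) was at 3.33, 3.40 and 4.25 CPM with WT and at 0.0848, 0.0940 and 0.103 CPM with sgPrrx1 fibroblasts (log2 fold change -5.34 ± 0.88, adjusted p = 0.0259).

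Igfbp7, Timp3 and Slc16a3 were the others among the 12 largest falls of well-counted genes. Igfbp7, a secreted IGF-binding protein, had no count in cells alone and was at 2.92, 3.16 and 4.24 CPM with WT and 0.151, 0.117 and 0.377 CPM with sgPrrx1 fibroblasts. Timp3, a metalloprotease inhibitor bound to the matrix, was at 2.28, 2.08 and 2.58 CPM with WT and at 0.283, 0.164 and 0 CPM with sgPrrx1 fibroblasts. Slc16a3, a lactate exporter, was at 1.99, 2.24 and 1.75 CPM with WT and at 0.264, 0.235 and 0.633 CPM with sgPrrx1 fibroblasts. Their log2 fold changes without replicate 3 were -4.66 (adjusted p = 0.00333), -3.35 (adjusted p = 0.00724) and -2.99 (adjusted p = 0.0115). In all 3 genes replicate 3 was low as well. The collagen crosslinking enzymes Lox and Loxl2 showed the same kind of values: Lox was at 1.35, 1.46 and 1.47 CPM with WT and 0.188, 0.235 and 0 CPM with sgPrrx1 fibroblasts (log2 fold change -2.75, adjusted p = 0.00724), and Loxl2 was at 1.01, 1.67 and 1.06 CPM against 0.104, 0.0822 and 0.291 CPM (log2 fold change -3.72, adjusted p = 0.00885).

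Genes with at most 3 counts in each library of cells alone and at least 10 counts in each WT library were listed after the values were seen, 109 in all. Since they were chosen for being present in the WT libraries and nothing was asked of the sgPrrx1 libraries, the choice favours lower values there, and their summed levels are a description only. Their CPM added up to 0.162 to 0.246 in cells alone, to 65.7, 67.7 and 71.4 in the WT cocultures and to 7.68, 6.07 and 7.02 in the sgPrrx1 cocultures, which is 8.89% to 11.2% of the WT mean. Replicate 3, with 10.3%, was between the other sgPrrx1 libraries. The proliferin gene Prl2c4, described below, gave 3.21, 2.71 and 3.37 CPM of the sgPrrx1 sums. The median gene was at 2.89%, 0% and 0% of its WT mean in sgPrrx1 replicates 1, 2 and 3. In replicates 1 and 2 together, 101 of the 109 genes were under 25% of the WT mean and 4 were at 50% or more.

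Members of that list, named after their values were seen, included developmental and cell-cycle genes. Hoxc8, Hoxc9 and Hoxc10, neighbouring homeobox genes that mark position along the body axis, had 0.148 to 0.397, 0.159 to 0.422 and 0.323 to 0.633 CPM with WT fibroblasts, and no count with sgPrrx1 fibroblasts except for 0.0342 CPM of Hoxc9 in replicate 3. Against a floor of 3 counts per library, Hoxc10 was at least 12.5-fold lower and Hoxc8 at least 6.91-fold lower. Maged2, with 0.662 to 1.08 CPM in WT and no count in any sgPrrx1 library, was at least 24.2-fold lower. Cdkn2a, which encodes the cell-cycle inhibitors p16 and p19, had no count in LLC1 cells alone, 1.73, 1.93 and 2.19 CPM with WT and 0.217, 0.0940 and 0.205 CPM with sgPrrx1 fibroblasts.

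Prl2c4, also in that list, was near its WT level. This proliferin gene, from a cluster of near-identical copies whose reads cannot be told apart with certainty, had at most 0.012 CPM in cells alone, 3.03, 2.44 and 3.55 CPM with WT and 3.21, 2.71 and 3.37 CPM with sgPrrx1 fibroblasts. The groups overlapped, and the log2 fold change was -0.02 without replicate 3 (adjusted p = 0.958) and 0.04 with it (adjusted p = 0.947). Prl2c2 was likewise at 6.67 to 8.56 CPM with WT and 6.65 to 8.0 CPM with sgPrrx1 fibroblasts, above the 0.675 to 1.03 CPM of cells alone. Dcn (decorin), a fibroblast proteoglycan, was at 29.6, 27.3 and 33.3 CPM with WT and 21.5, 20.6 and 22.3 CPM with sgPrrx1 fibroblasts, well above the 2.10 to 3.81 CPM of cells alone, and its difference did not pass (log2 fold change -0.52, adjusted p = 0.109 without replicate 3; -0.31, adjusted p = 0.271 with the length offset).

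Markers of the cells that a spheroid or a sort could hold were read beside these falls. Of 17 fibroblast markers, Thy1, Fap, Pi16 and Mfap5 had no count in any sgPrrx1 library and at most 0.0795 CPM in the WT libraries, while Col3a1, Pdgfra, Prrx1 and Fbn1 were high in LLC1 cells alone. Dcn, Col1a1 and Col1a2, also in this list, were above cells alone in every WT library and lower with sgPrrx1 fibroblasts in all 3 libraries, as given above. Dpt, at 10.1 to 12.4 CPM alone, was at 13.3 to 14.6 CPM with WT and rose to 25.0, 26.0 and 40.0 CPM with sgPrrx1 fibroblasts. Ly6c1 was at 49.0 to 63.3 CPM alone, 67.9 to 72.7 CPM with WT and 63.8, 62.6 and 114 CPM with sgPrrx1 fibroblasts. Cd34 was at 0.225 to 0.368, 0.740 to 0.914 and 0.471, 0.482 and 0.770 CPM in the same order. The summed level of the list was 1944 to 2049 CPM in cells alone, 1520 to 1560 CPM with WT and 1794 to 1924 CPM with sgPrrx1 fibroblasts, set mostly by Col3a1. Of 8 endothelial markers Emcn and Cldn5 had no count anywhere, Pecam1, Cdh5, Tek and Tie1 were at most at 0.235 CPM, and the summed level was 15.5 to 16.95 CPM with WT and 8.89 to 20.9 CPM with sgPrrx1 fibroblasts, made up of Egfl7 and, in the WT libraries, Kdr. Of 10 macrophage markers Adgre1, C1qa, C1qb and Tyrobp had no count in any library and the summed level was 49.9 to 53.3 CPM with WT and 53.2 to 90.8 CPM with sgPrrx1 fibroblasts, mostly Cd68 and Cd14. Summed levels with WT and sgPrrx1 fibroblasts were 1.81 to 1.97 and 0.933 to 2.69 CPM for 8 keratinocyte markers, 19.7 to 23.4 and 18.7 to 22.95 CPM for 6 pericyte markers, 1.66 to 2.29 and 1.68 to 1.99 CPM for 6 adipocyte markers, and 0 in both for 6 T cell markers. Of these lists 6, 4, 4 and 6 markers had no count in any sgPrrx1 library. The part of fibroblast RNA in the falls was not tested, and in bulk RNA fewer cells of a type and less RNA per cell cannot be told apart.

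Among collagen genes that LLC1 cells express without fibroblasts, Col3a1, Col6a1 and Col6a2 were called higher without replicate 3 and not with all libraries. Col3a1, the main chain of type III collagen, was at 1087, 1081 and 1063 CPM with WT and at 1457, 1457 and 1408 CPM with sgPrrx1 fibroblasts. The groups did not overlap, replicate 3 included, and cells alone lay higher still at 1555 to 1625 CPM. Its log2 fold change was 0.43 ± 0.04 without replicate 3 (adjusted p = 0.00303) and 0.42 with it (adjusted p = 0.121). Col6a1 and Col6a2, chains of the beaded-filament type VI collagen, were at 80.4, 82.1 and 74.6 CPM and at 35.6, 33.6 and 33.8 CPM with WT, and at 111, 115 and 126 CPM and at 48.7, 50.02 and 65.5 CPM with sgPrrx1 fibroblasts (log2 fold changes 0.51 and 0.52, adjusted p = 0.00794 and 0.00448 without replicate 3; adjusted p = 0.101 and 0.121 with it). Again all sgPrrx1 libraries were above all WT libraries.

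Counts of list members from here on are those without replicate 3, to be read against 2.94% of all genes called higher and 2.75% called lower. With all libraries edgeR called no member of any list but Col1a1, Col1a2, Bgn, Fbln2 and Bmp2. Of 12 interstitial collagen genes, 10 were tested, 5 were called higher and 2 lower, Col1a1 and Col1a2, against 0 higher and 2 lower of 9 with all libraries. The median log2 fold change of the 10 was 0.04, against -0.01 for all genes. Col5a1 and Col5a3, fibril-forming collagens of minor amount, were among the 5 (log2 fold changes 0.31 and 0.25), but with the length offset they were not called (adjusted p = 0.92 and 0.725), and Col3a1, Col6a1 and Col6a2 were, with smaller log2 fold changes of 0.25, 0.37 and 0.34. In the basement membrane list 3 of 10 tested genes were higher and 2 lower. Col4a2 rose by 0.39 (adjusted p = 0.0245), Lamb1 by 0.32 (adjusted p = 0.0268) and Lamb2 by 0.23 (adjusted p = 0.0498), and of these only Lamb1 was called with the offset (log2 fold change 0.12, adjusted p = 0.0439). Among the lower genes, the linker Nid2 had 0.149 to 0.344 CPM with WT fibroblasts and no count with sgPrrx1 fibroblasts.

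**Figure D4:**
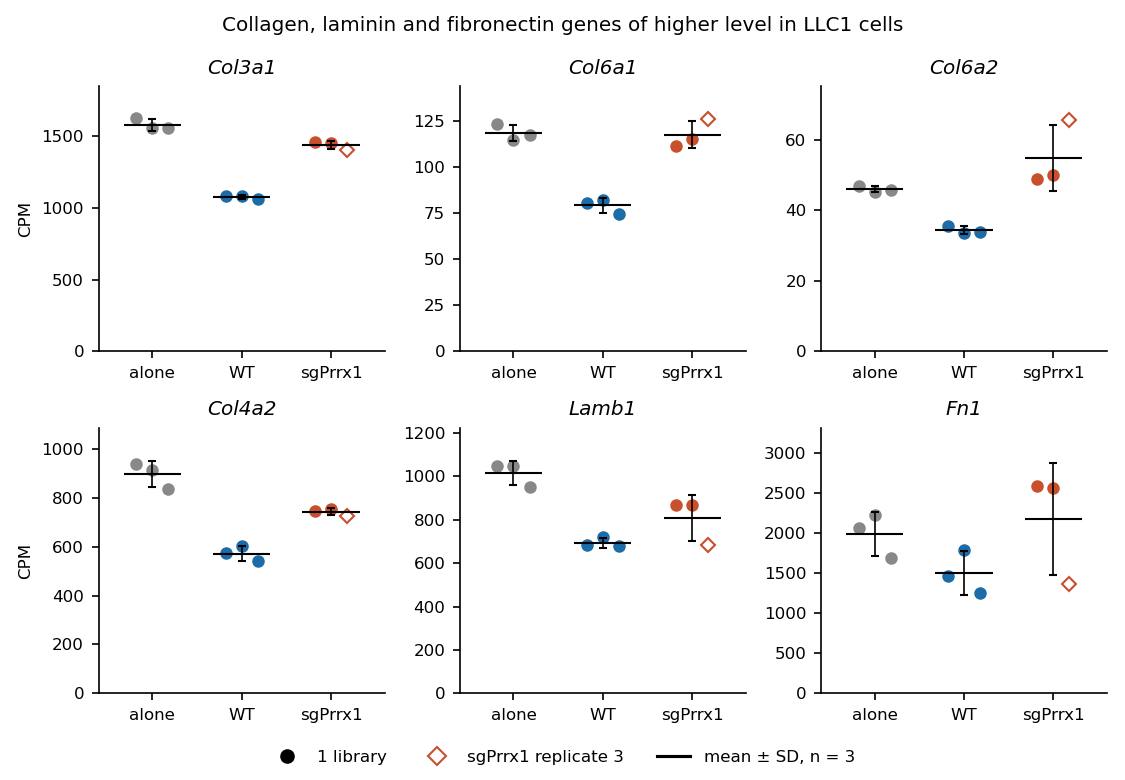
CPM of Col3a1, Col6a1, Col6a2, Col4a2, Lamb1 and Fn1 (vertical axes, linear from 0) in LLC1 cells alone, with WT and with sgPrrx1 fibroblasts; points are libraries, bars mean ± SD (n = 3), open diamonds sgPrrx1 replicate 3. For Col3a1, Col6a1, Col6a2 and Col4a2 all sgPrrx1 points lie above the WT points, while for Fn1 replicate 3, at 1366 CPM, falls within the WT range of 1256 to 1793.

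Fibronectin and its partners showed a split within the matricellular list, in which 4 of 20 tested genes were higher and 3 lower (median log2 fold change 0.09). Fn1, which forms the provisional matrix of wounds, was at 1465, 1793 and 1256 CPM with WT and at 2594, 2569 and 1366 CPM with sgPrrx1 fibroblasts. Replicates 1 and 2 were above all WT libraries and replicate 3 was not. The log2 fold change was 0.77 ± 0.14 without replicate 3 (adjusted p = 0.0332) and 0.53 with it (adjusted p = 0.442), and it was 0.50 with the length offset without replicate 3 (adjusted p = 0.00458). Thbs2, a relative of Thbs1, was at 1181, 1214 and 1099 CPM with WT and at 1388, 1403 and 813 CPM with sgPrrx1 fibroblasts (log2 fold change 0.26, adjusted p = 0.0462 without replicate 3). Replicate 3 was below every WT library, the log2 fold change was 0.04 with all libraries, and the gene was not called with the length offset (adjusted p = 0.0501). Ltbp4, which binds latent TGF-beta, and the elastic-fibre protein Emilin1 were higher by 0.39 and 0.29 (adjusted p = 0.0176 and 0.0456) and above all WT libraries in replicate 3 too, but did not pass with the length offset (adjusted p = 0.104 and 0.244). For Emilin1 the log2 fold change with all libraries was 0.69.

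The lists of matrix enzymes were split as well. In collagen processing 3 of 18 were higher and 2 lower, the latter being Lox and Loxl2. P4ha3, a prolyl hydroxylase subunit, rose from 4.82, 4.77 and 5.03 CPM to 7.34, 7.25 and 8.34 CPM (log2 fold change 0.58, adjusted p = 0.0145), and Loxl3 rose from 34.3, 35.3 and 32.7 CPM to 43.8, 43.7 and 55.6 CPM (log2 fold change 0.35, adjusted p = 0.0224). In the protease list 3 of 17 were higher and 3 lower. Mmp3 (stromelysin) rose from 81.4, 77.1 and 81.5 CPM to 108, 105 and 113 CPM (log2 fold change 0.40, adjusted p = 0.0184), and the inhibitor Timp2 rose from 393, 388 and 387 CPM to 491, 501 and 436 CPM (log2 fold change 0.34, adjusted p = 0.0143). Plau, the urokinase plasminogen activator, fell from 136, 130 and 133 CPM to 108, 113 and 104 CPM (log2 fold change -0.27, adjusted p = 0.0332), toward its level of 80.02 to 84.1 CPM in cells alone.

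The largest rises without replicate 3 were more dependent on which libraries were read. Gas2l3, a linker of actin and microtubules, was at 15.1, 16.6 and 12.6 CPM with WT and at 50.7, 51.6 and 14.1 CPM with sgPrrx1 fibroblasts, so replicates 1 and 2 were at the level of cells alone (38.2 to 54.5 CPM) and replicate 3 within the WT range. Its log2 fold change was 1.78 ± 0.15 (adjusted p = 0.00224) without replicate 3 and 1.39 (adjusted p = 0.304) with it. Tnr (tenascin R) and Smpd3, a neutral sphingomyelinase, were called without replicate 3 with log2 fold changes of 1.23 and 0.78 (adjusted p = 0.0181 and 0.0245), and Dbf4, the activator of the replication kinase Cdc7, with 0.77 (adjusted p = 0.00246). Replicate 3 was inside the WT range for Tnr, and above it for Smpd3 and Dbf4.

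Dermatopontin, complement C3 and Cx3cl1 were above all WT libraries in every sgPrrx1 library. Dpt (dermatopontin), a collagen-binding matrix protein of skin fibroblasts, was at 13.7, 13.3 and 14.6 CPM with WT and at 25.0, 26.0 and 40.0 CPM with sgPrrx1 fibroblasts (log2 fold change 0.87, adjusted p = 0.00679 without replicate 3; 1.13, adjusted p = 0.112 with it). C3 was at 73.3, 78.1 and 68.1 CPM with WT and at 120, 119 and 113 CPM with sgPrrx1 fibroblasts (log2 fold change 0.70, adjusted p = 0.00307; 0.68, adjusted p = 0.0555 with replicate 3). Cx3cl1 (fractalkine, a chemokine) was at 37.6, 36.3 and 32.5 CPM with WT and at 56.1, 55.6 and 61.7 CPM with sgPrrx1 fibroblasts, below the 90.8 to 91.3 CPM of cells alone (log2 fold change 0.65, adjusted p = 0.00448; 0.70, adjusted p = 0.0555 with replicate 3). Trp53i11 also rose in every library, from 4.08, 4.40 and 3.08 CPM to 7.26, 6.44 and 11.2 CPM (log2 fold change 0.82, adjusted p = 0.0332). The transcription factor Sp2 was higher by 0.61 without replicate 3 (adjusted p = 0.0446) and by 0.31 with all libraries. Replicate 3 was below every WT library, and with the length offset the gene was not called (adjusted p = 0.0521).

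In the chemokine and cytokine list 3 of 22 tested genes were higher and 1 lower, beside 2.94% and 2.75% of all genes, and none was called with all libraries (median log2 fold change -0.21). Csf1, the macrophage growth factor, rose from 462, 458 and 442 CPM to 576, 563 and 626 CPM (log2 fold change 0.32, adjusted p = 0.0153; 0.19 with the length offset), against 791 to 808 CPM in cells alone. The alarmin Il33 fell from 85.7, 87.3 and 91.4 CPM to 66.9, 66.3 and 44.2 CPM (log2 fold change -0.41, adjusted p = 0.0133), against 17.1 to 18.9 CPM in cells alone. Cxcl5, a neutrophil chemokine, rose by 0.42 without replicate 3 (adjusted p = 0.0228), but replicate 3, at 36.1 CPM, was below the WT range of 36.9 to 40.9, and the log2 fold change was 0.26 with all libraries and 0.69 with the length offset. The EGF receptor ligands Btc, Areg and Hbegf fell by 0.37, 0.33 and 0.26 (adjusted p = 0.0275, 0.0445 and 0.0415), 3 of 10 tested in their list, and with the offset Areg was not called (adjusted p = 0.207). With all libraries the log2 fold changes of Btc and Areg were -0.63 and -0.16, and with the offset that of Btc was -0.24.

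Of 27 interferon-stimulated genes tested, 5 fell and none rose without replicate 3 (2.75% of all genes fell), and none was called with all libraries (median log2 fold change -0.13). The antiviral GTPase Mx2 was at 14.6, 15.2 and 16.2 CPM with WT and at 10.3, 10.0 and 12.8 CPM with sgPrrx1 fibroblasts (log2 fold change -0.60, adjusted p = 0.00608), and Gbp2, another GTPase of this response, fell by 0.39 (adjusted p = 0.0143), with all sgPrrx1 libraries below all WT libraries for both. Mx1 and Ifit1 fell by 0.36 and 0.33 (adjusted p = 0.0434 and 0.0272), and Isg15, a short ubiquitin-like protein, by 0.42 (adjusted p = 0.0487), although it was at 131 CPM in replicate 3 against 93.8 to 104 CPM with WT and its log2 fold change was -0.09 with all libraries and -0.19 with the length offset. With the length offset 9 of the 27 were lower and 1 higher, beside 3.22% and 3.15% of all genes in that fit.

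Of 27 sterol and fatty acid genes 7 were higher and 1 lower without replicate 3 (2.94% and 2.75% of all genes), and none was called with all libraries (median log2 fold change 0.14). Fasn, the fatty acid synthase, was at 202, 228 and 177 CPM with WT and at 302, 302 and 223 CPM with sgPrrx1 fibroblasts (log2 fold change 0.57, adjusted p = 0.0317), and replicate 3 was within the WT range. The desaturase Scd1 and the transcription factor Srebf2 were each higher by 0.30 (adjusted p = 0.0467 and 0.037). Replicate 3 was below the WT range of 202 to 215 CPM for Scd1 and inside that of 219 to 244 CPM for Srebf2. With all libraries their log2 fold changes were 0.11 and 0.20, and with the length offset Srebf2 was not called (log2 fold change 0.09, adjusted p = 0.111). The length offset moved Fasn to 0.24, still called (adjusted p = 0.0292).

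In the signalling and stress lists the genes called without replicate 3, in either direction, were 2 of 22 tested for TGF-beta and BMP, 1 of 12 for Notch, 1 of 14 for Wnt, 2 of 8 for IGF and 2 of 13 for integrins, beside 5.69% of all genes. They were 4 of 20 for immediate early genes, 2 of 15 for hypoxia, 3 of 21 for ATF4, 2 of 18 for p53 targets and 1 of 13 for antigen presentation. With all libraries only Bmp2 was called. Smad3, a receptor-activated mediator, rose from 56.3, 56.2 and 50.2 CPM to 74.7 and 75.8 CPM, with replicate 3 at 46.6 CPM (log2 fold change 0.47, adjusted p = 0.0149 without it; 0.28 with it and 0.30 with the length offset). Igf2r rose by 0.48 in the IGF list (adjusted p = 0.0494), but its 84.2 CPM in replicate 3 was below the WT range of 156 to 196, and the log2 fold change was 0.13 with all libraries and 0.22 with the length offset. The Wnt co-receptor Lrp5 rose by 0.34 (adjusted p = 0.0275), the Notch ligand Jag2 by 0.38 (adjusted p = 0.0402), and the integrins Itga3 and Itgb5 by 0.27 and 0.24 (adjusted p = 0.0439 and 0.0408). For these 4 genes replicate 3 was above every WT library too, but with the offset none of them was called (adjusted p = 0.0561 for Lrp5, 0.194 for Jag2, 0.212 for Itga3 and 0.0589 for Itgb5). With all libraries the log2 fold changes of Itga3 and Itgb5 were 0.41 and 0.46. Among 20 immediate early genes Fosb, Atf3 and Klf6 fell by 0.40, 0.32 and 0.31 (adjusted p = 0.00794, 0.0411 and 0.0415), and Fos rose by 0.30 (adjusted p = 0.0275). Atf3 was at 47.99 CPM in replicate 3, above the WT range of 40.0 to 41.7, and its log2 fold change was -0.11 with all libraries. Klf6 had -0.57 and Fos 0.20 with all libraries, and for Fos replicate 3 was not above the WT libraries. In the hypoxia list Bnip3, a mitophagy receptor, fell from 113, 107 and 120 CPM to 78.9, 77.8 and 76.1 CPM (log2 fold change -0.53, adjusted p = 0.00724; -0.31 with the offset), and Ankrd37 fell by 0.60 (adjusted p = 0.035), which was not called with the offset (adjusted p = 0.169). In the ATF4 list 3 genes fell: Vldlr (0.571 to 0.795 CPM in WT, at most 0.0471 CPM in sgPrrx1), and the serine synthesis enzymes Psph and Psat1, by 0.49 and 0.23 (adjusted p = 0.0181 and 0.0438). For Psph replicate 3, at 36.2 CPM, was above the WT range of 29.6 to 33.9, and for Psat1 it was within the WT range, with log2 fold changes of -0.22 and -0.15 with all libraries. Fas and Ccng1, p53 targets, fell by 0.30 and 0.22 (adjusted p = 0.0455 and 0.0499). Fas was at 18.3 CPM in replicate 3, above the WT range of 14.9 to 16.1, its log2 fold change was -0.10 with all libraries, and it was not called with the offset (adjusted p = 0.62). Ccng1 had -0.38 with all libraries and -0.14 with the offset. H2-Q4, a class I gene with near-identical relatives, fell by 0.93 (adjusted p = 0.035). Cdh11, Kdr, Slc16a3 and Igfbp7, described above, were the only falls among 14 EMT, 8 VEGF, 19 glycolysis and 8 IGF genes.

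No member was called by edgeR without replicate 3 in the lists for contractile genes (9 tested), epithelial genes (7), YAP and TEAD targets (13), DNA replication (19), mitosis (20), ER chaperones (15), NRF2 targets (15), stem cell genes (7), proliferins (3) and histones (13). Of these 121 genes, 29 had an unadjusted p under 0.05 (29.5% of all genes did), DESeq2 called 17 (17.5% of all genes), voom 49 (40.4%) and edgeR with the length offset 10 (6.37%). Some proliferation genes overlapped between the groups only through replicate 3. Mcm6 was at 340 to 343 CPM with WT and 324 to 358 CPM with sgPrrx1 fibroblasts, and Top2a at 578 to 628 CPM and 408 to 642 CPM. Mki67 was at 204 to 264 CPM and 129 to 295 CPM. For these 3 genes sgPrrx1 replicates 1 and 2 were above every WT library and replicate 3 below every WT library. Mcm7 was at 337 to 350 CPM and 338 to 487 CPM, with replicate 3 the highest. Cald1 and Tpm1, the most abundant contractile genes, had log2 fold changes of -0.03 and -0.17 (adjusted p = 0.82 and 0.132), and Tjp1 and Ocln, junction genes, of 0.23 and 0.31 (adjusted p = 0.335 and 0.406). The median of the 7 epithelial genes tested was lower, at -0.48, and -0.45 with the length offset. Axl and Ccnd1 in the YAP list had 0.25 and 0.14 (adjusted p = 0.503 and 0.0803), Hspa5 and Hsp90b1 among chaperones -0.12 and -0.01 (adjusted p = 0.146 and 0.893), and Txnrd1 and Nfe2l2 in the NRF2 list -0.02 and 0.02 (adjusted p = 0.862 and 0.791). Itga6 and Ly6a among stem cell genes had 0.17 and -0.11 (adjusted p = 0.255 and 0.545), and Hist1h1d and Hist1h1e 0.02 and 0.38 (adjusted p = 0.969 and 0.281). With all libraries the log2 fold changes of the genes from Cald1 on ran from -0.30 (Cald1) to 0.61 (Hist1h1e), and none was called.

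Of the 5 largest falls in CPM without replicate 3, 4 were ribosomal protein genes, and replicate 3 lay on the other side of the WT libraries for each of them. Rpl12 was at 2124, 1946 and 2331 CPM with WT, at 1676 and 1618 CPM in sgPrrx1 replicates 1 and 2 and at 3223 CPM in replicate 3 (log2 fold change -0.38, adjusted p = 0.0455 without it; 0.03, adjusted p = 0.969 with it). Rps12 (log2 fold change -0.40, adjusted p = 0.0446), Rpl17 (-0.42, adjusted p = 0.0439) and Rpl35a (-0.41, adjusted p = 0.0381) had the same order of values and, with all libraries, log2 fold changes of -0.11, -0.04 and -0.03, with 2521, 2187 and 1363 CPM in replicate 3 above all WT libraries. With the length offset Rps12 and Rpl35a were not called (adjusted p = 0.0882 and 0.246), and the log2 fold changes of Rpl12 and Rpl17 were -0.21 and -0.12. These transcripts are short (517 to 1242 nt) and have processed copies in the genome, so their counts are uncertain. Of 26 ribosomal genes in the list only Rps12 was called, with a list median of -0.30 without replicate 3, 0.18 with it and -0.06 with the length offset. Of 28 respiratory chain genes only Uqcrq was called (log2 fold change -0.56, adjusted p = 0.0373), and its 141 CPM in replicate 3 was above the WT range of 62.3 to 75.7. It was not called with the offset (adjusted p = 0.054), and its log2 fold change was 0.19 with all libraries. Odc1, the first enzyme of polyamine synthesis, fell by 0.25 (adjusted p = 0.0441), with replicate 3 at 1259 CPM within the WT range of 1151 to 1275 and a log2 fold change of -0.14 with all libraries. The translation factors Eef2 and Eif4b rose by 0.17 each (adjusted p = 0.0421 and 0.035), and replicate 3, at 7039 and 1219 CPM, was above the WT range for Eef2 and below it for Eif4b (log2 fold changes 0.36 and 0.07 with all libraries, and 0.07 and 0.11 with the length offset).

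A list of 10 genes with qPCR assays, among them Fn1, Vim and Tgfb1, had 7 members tested without replicate 3, and only Fn1 was called. Vim was at 2680 to 2906 CPM with WT and 2662 to 4010 CPM with sgPrrx1 fibroblasts (log2 fold change -0.07, adjusted p = 0.424; 0.15 with all libraries), Tgfb1 at 99.8 to 105 CPM and 115 to 182 CPM (log2 fold change 0.16, adjusted p = 0.129; 0.42, adjusted p = 0.396 with all libraries), Tgfb2 at 1.82 to 2.18 CPM and 0.582 to 1.30 CPM (log2 fold change -0.67, adjusted p = 0.056; -0.74, adjusted p = 0.0406 with the length offset), and Wnt5a at 1.31 to 1.69 CPM and 0.411 to 1.05 CPM (log2 fold change -0.52, adjusted p = 0.16; -0.81, adjusted p = 0.389 with all libraries). Adamts2 was at 0.265 to 0.348 CPM and 0 to 0.0822 CPM (log2 fold change -2.43, adjusted p = 0.0702). Aldh1a3, Postn, Igf1 and Cdh1 were at or below 0.240 CPM in every LLC1 library.

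The same contrast was read in 168FARN, a mouse breast cancer line that was cocultured with WT or sgPrrx1 cancer-associated fibroblasts from MMTV-PyMT tumours (3 samples each). There 8130 of 13540 genes passed the threshold (60%). Line and fibroblast source differ together, so what follows cannot be assigned to either. The difference between the lines was tested as an interaction, which passed for 19.3% of 14369 genes with all libraries and for 44.5% of 14644 without LLC1 sgPrrx1 replicate 3. Col1a1 fell in both lines, with log2 fold changes of -3.67 in LLC1 and -3.95 in 168FARN, where it went from 161 ± 11.5 to 10.4 ± 0.207 CPM (SD, n = 3), and its interaction did not pass (difference 0.25, adjusted p = 0.586). Fbln2 had log2 fold changes of -3.21 and -2.67, and the difference did not pass with all libraries (-0.55, adjusted p = 0.128) but passed without replicate 3 (-0.56, adjusted p = 0.0231).

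Other genes differed between the lines. Col1a2 fell more in LLC1 than in 168FARN (log2 fold changes -5.02 and -3.53, difference -1.50, adjusted p = 0.00117) and Bgn less (-2.38 and -3.66, difference 1.25, adjusted p = 2.97e-05). Thbs1 fell by 3.33 in LLC1 and by 0.28 in 168FARN (difference -3.05, adjusted p = 0.000381), and Tns1 by 3.41 and 0.20 (difference -3.24, adjusted p = 7.23e-07). Pdpn fell in LLC1 and rose by 0.49 in 168FARN, where it was at 1007 ± 55.0 CPM with WT (difference -2.74, adjusted p = 2.1e-06). Thbs1, Tns1 and Pdpn had mean levels of 1.18, 0.0583 and 0.678 CPM in LLC1 cells alone. In 168FARN cells alone they were at 55.7, 85.7 and 1010 CPM. The collagens that were higher in LLC1 fell in 168FARN: Col3a1 by 2.87 (difference 3.27, adjusted p = 6.85e-10), Col6a1 by 1.23 (adjusted p of the difference 6.59e-09) and Col6a2 by 2.16 (adjusted p of the difference 2.45e-08). Fn1 was 0.53 higher in LLC1 with all libraries and 0.97 lower in 168FARN (difference 1.49, adjusted p = 0.0015). Col3a1, Col6a1, Col6a2 and Fn1 had mean levels of 1579, 118, 45.9 and 1994 CPM in LLC1 cells alone. In 168FARN cells alone they were at 8.20, 72.0, 4.28 and 4769 CPM. Col1a2 and Bgn were at 0.0296 and 2.03 CPM in LLC1 alone and at 0.103 and 2.61 CPM in 168FARN alone. What part the levels in cells alone have in the differences was not tested.

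**Figure D5:**
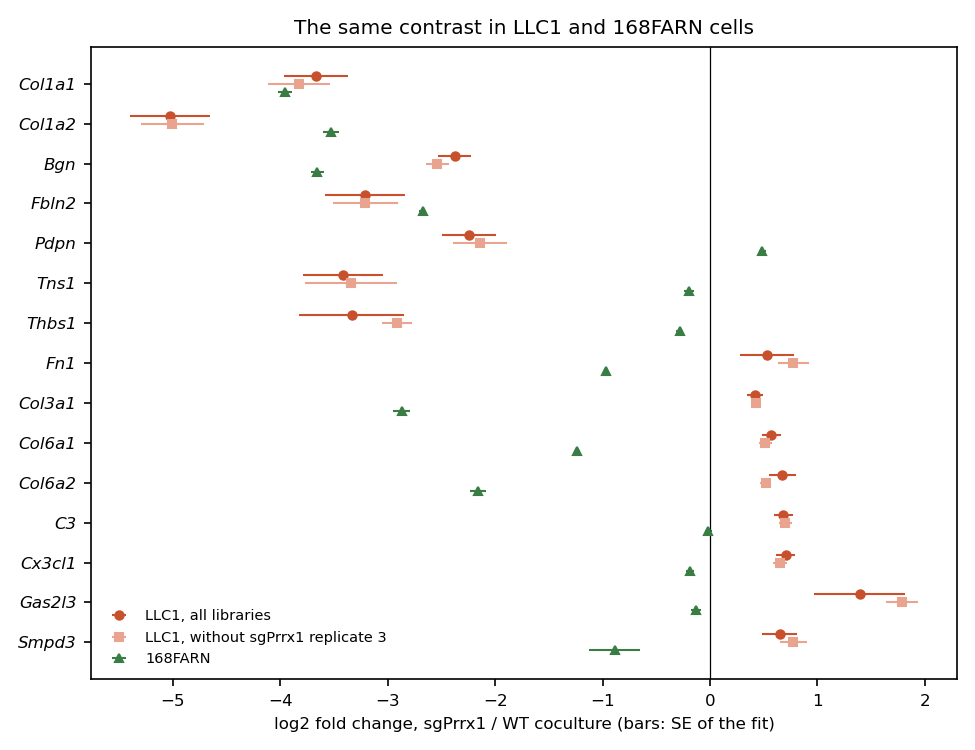
Log2 fold change between sgPrrx1 and WT cocultures (horizontal axis, bars SE of the fit) for 15 genes in LLC1 with all libraries (circles), in LLC1 without sgPrrx1 replicate 3 (squares) and in 168FARN (triangles). Col1a1, Col1a2, Bgn and Fbln2 lie left of 0 in both lines, whereas Col3a1 lies at 0.42 in LLC1 and at -2.87 in 168FARN.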

How the data were processed

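The authors deposited counts per gene for each line, made from 100 bp read pairs by trimming (Trimmomatic), alignment to mm10 (STAR) and counting (HTSeq). The library kit (TruSeq v2) does not mark strand, so overlapping antisense genes cannot be told apart. Whether a batch correction named in the methods touched these counts is not given in the sources used here. Low values and zeros may therefore not be raw counts. Among the LLC1 genes, 27 symbols had become dates and 61 held 1 constant nonzero value throughout, and neither kind is named. All columns were used, and 99.4% of symbols matched RefSeq (GRCm38.p6).

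Counts were fitted in R 4.3.3 with edgeR 4.0.16: filterByExpr, TMM scaling, 1 mean for each of the 3 LLC1 groups, and a two-sided quasi-likelihood test, adjusted by Benjamini-Hochberg over all genes tested. Interactions used all 18 libraries. CPM used TMM-scaled totals of the genes kept. Transcript lengths and GC came from GENCODE vM1 protein-coding transcripts, for 93.1% of genes tested. Length ratios used genes with a mean above 1 CPM and a pseudocount of 0.5 CPM. Samples of a group differed by more than sampling noise (chi-square per degree of freedom at least 26.6).

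Genes named were all those called with all libraries, then, without sgPrrx1 replicate 3 and among called genes with at least 100 mean counts and no overlap, the 12 largest rises and falls in fold and the 5 in CPM, Prrx1, the 10 qPCR genes, and up to 4 called members of each of 35 lists (otherwise up to 2 by level). Some genes that the rule names are not reported here. Exceptions to the rule are further members of the lists and markers, Dcn, and genes said to be named after their values were seen. Members, lists and alternatives were chosen with earlier results of these data known. Alternatives used DESeq2 1.42.0 and limma 3.58.1 among others.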

Additional observations from a re-analysis of the deposited data

Results flagged for a closer look

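Genes are listed here because the effect of Prrx1 deletion in the fibroblasts differed between LLC1 and 168FARN cells by the interaction test of edgeR's quasi-likelihood fit over all libraries, among genes called with all LLC1 libraries or among the largest changes in fold or CPM without sgPrrx1 replicate 3. Values are the log2 fold change in LLC1 minus that in 168FARN. The difference was positive for Bgn (1.25, adjusted p = 2.97e-05), Gas2l3 (1.51, adjusted p = 0.0308), Smpd3 (1.51, adjusted p = 0.00293), Fn1 (1.49, adjusted p = 0.0015), C3 (0.68, adjusted p = 9.38e-05) and Cx3cl1 (0.87, adjusted p = 9.27e-06). Among genes of high level it was positive for Col3a1 (3.27, adjusted p = 6.85e-10), Thbs2 (2.08, adjusted p = 1.41e-05), Eef2 (0.60, adjusted p = 0.00429) and Eif4b (0.41, adjusted p = 0.0225). It was negative for Col1a2 (-1.50, adjusted p = 0.00117), Pdpn (-2.74, adjusted p = 2.1e-06), Tns1 (-3.24, adjusted p = 7.23e-07) and Thbs1 (-3.05, adjusted p = 0.000381), and for Rps12 (-0.81, adjusted p = 0.0144), Rpl35a (-0.80, adjusted p = 0.0351) and Odc1 (-0.83, adjusted p = 2.03e-05). All 17 differences kept their sign and passed without sgPrrx1 replicate 3. Line and fibroblast source cannot be told apart in these differences. The lines also differ in the level of some of these genes in cells alone, as given above.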

How the results depend on the processing

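With all libraries the count of 7 became 501 with DESeq2, 2 with at least 10 counts in every library, 11 with only the 2 groups compared, 57 with the length offset and 4681 with voom, and leaving out 1 library gave 3 to 745. The count of 745 without sgPrrx1 replicate 3 became 2284 with DESeq2, 413 with no filter, 1897 with only the 2 groups, 5286 with voom and 114 at an absolute log2 fold change of at least 1, and leaving out a further library gave 12 to 1134. The cause of these moves was not tested beyond the libraries and genes each setting drops. Genes whose line difference passed rose from 2771 to 6517 without replicate 3. As a block, replicate numbers gave 2 genes with all libraries and 1391 without replicate 3. The deviations of same-numbered WT and sgPrrx1 samples correlated at -0.0018, 0.242 and 0.111. With 3 samples per group these values cannot decide whether the numbers pair the samples. For named genes, 74 values with all libraries kept their direction and their side of the threshold and 27 no longer passed. Without replicate 3, 1171 did so, 364 no longer passed, 18 newly passed and 33 changed sign.

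Log2 fold changes that changed sign are those of the fit without replicate 3. With replicate 3 put back these were Rpl12 0.026, Vim 0.15, Tjp1 -0.19, Ocln -0.061, Mcm7 0.19, Top2a -0.10, Uqcrq 0.19, Itga6 -0.14, Ly6a 0.31, Prl2c4 0.044 and Hist1h1d -0.22. With the length offset they were Mcm6 -0.00093, Hsp90b1 0.067, Ly6a 0.17, Prl2c2 0.22 and Prl2c4 0.36. With no filter they were Mcm7 0.0013. With no scaling factors they were Mcm7 0.013, Hsp90b1 0.0041 and Txnrd1 0.00074. With the replicate block they were Mcm7 0.013, Hsp90b1 0.017 and Prl2c4 0.10. With voom they were Hsp90b1 0.0059. Leaving out 1 library moved Cald1 from -0.047 to 0.0028, Mcm7 from -0.021 to 0.017, Hsp90b1 from -0.044 to 0.035, Prl2c4 from -0.15 to 0.11 and Hist1h1d from -0.066 to 0.19. Genes far below 1 CPM rest on few counts, such as 12 to 26 counts per WT library for Nid2.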
